A study of Mus musculus with 12 samples.

Results

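The genes described here encode the proteins of the cytosolic ribosome. They were taken as every gene of the expression table whose symbol starts with Rps or Rpl followed by a digit, together with Rpsa, Rplp0, Rplp1 and Rplp2, and without the Rps6k kinases. The rule found 91 of 16094 named genes. Of these, 31 are the usual proteins of the small subunit, 46 are those of the large subunit, 7 are paralogs, 6 have pseudogene names and 1, Rps19bp1, encodes a binding partner of Rps19 and not a ribosomal protein. The 77 usual genes are called canonical below. The authors' percent of ribosomal transcripts in each cell was described beside them.

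Spleen cells bearing the leukocyte surface protein CD45 were enriched with magnetic beads from 4 male mice and captured with the 10x Genomics droplet method. The 2 control mice, WT 1 and WT 2, were C57BL/6. The 2 lupus-prone mice, SLE.yaa 1 and SLE.yaa 2, were B6.Sle1yaa, a strain that combines the Sle1 susceptibility interval with Yaa, a duplication of X-linked genes including Tlr7 on the Y chromosome. The series asks how lupus susceptibility loci shape lymphocyte clones and myeloid cells. The deposited age was 14.4 in WT and 14.9 in SLE.yaa, with no unit stated, so age and strain cannot be told apart. The group labels stand under a tag that mentions chimeras, but no source used here says whether bone marrow was transferred.

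The table held 22285 cells, 5497 and 5697 from the WT mice and 4961 and 6130 from the SLE.yaa mice. Median depth was 3467 and 3670 UMIs (unique molecular identifiers, 1 per captured transcript) per cell in WT against 4695 and 4050 in SLE.yaa, and total UMIs ran from 21793635 to 28877299 per mouse. Ptprc, the gene of CD45, had a value above 0 in 89.5% to 93.2% of the cells of each mouse. A cell barcode was shared with another library for 510 cells, or 2.29%. Cell types were those annotated by the authors, and the treatment of doublets is not stated in the sources used here. The mouse was the replicate, so SDs are over n = 2, and an exact permutation test of 2 against 2 mice cannot give a p below 0.333.

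A ribosome is built from ribosomal RNA and about as many different proteins as there are canonical genes, which are made in near-equal numbers. Their mRNAs begin with a cytosine and a run of pyrimidines, the 5′ terminal oligopyrimidine or TOP element, through which growth signals acting on mTOR and Larp1 control their translation. Resting naive lymphocytes are small cells that hold a large share of such mRNAs. Lupus in mice with extra Tlr7 is known for activated T cells, plasma cells and expanded monocytes.

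The sequences around annotated start sites are shown for genes named in the results below and for Rpl35, whose expression is not described there. They let canonical genes be set beside their paralogs. Each line runs from 40 bases before to 20 bases from the annotated start onward, 5′ to 3′ on the strand of the gene, from RefSeq on GRCm38.p6. Capitals mark the longest run of C and T that comes within 5 bases of the start.
Rps24, chr14:24490638-24490697, plus strand: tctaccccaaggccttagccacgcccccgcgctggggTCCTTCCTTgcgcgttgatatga
Rpl35, chr2:39005112-39005171, minus strand: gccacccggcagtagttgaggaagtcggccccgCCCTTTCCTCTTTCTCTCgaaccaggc
Rpl12, chr2:32961672-32961731, plus strand: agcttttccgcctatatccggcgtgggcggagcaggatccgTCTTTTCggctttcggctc
Rps28, chr17:33824543-33824602, minus strand: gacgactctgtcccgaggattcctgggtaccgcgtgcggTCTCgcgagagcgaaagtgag
Rps27, chr3:90213629-90213688, minus strand: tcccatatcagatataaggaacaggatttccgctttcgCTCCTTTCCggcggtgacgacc
Rps27l, chr9:66946046-66946105, plus strand: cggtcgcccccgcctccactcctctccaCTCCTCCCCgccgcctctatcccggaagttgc
Rpl22, chr4:152324396-152324455, plus strand: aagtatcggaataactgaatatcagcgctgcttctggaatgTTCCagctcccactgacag
Rpl22l1, chr3:28805468-28805527, plus strand: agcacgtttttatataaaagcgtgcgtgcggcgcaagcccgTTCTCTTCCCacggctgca
Rpl3l, chr17:24727786-24727845, plus strand: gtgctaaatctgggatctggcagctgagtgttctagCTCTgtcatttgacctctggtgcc

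The run was 18 bases in Rpl35, 10 in Rpl22l1 and 9 in Rps24, Rps27 and Rps27l. It was 7 in Rpl12 and 4 in Rps28, Rpl22 and Rpl3l. Rps24, Rps27l, Rpl22 and Rpl3l each had 2 annotated starts, and the one with the longest run is shown. For Rps27l the start shown lies inside the gene, whose RefSeq position is chr9:66944624-66949522. All 91 genes have a RefSeq position, and 66 had an entry in the table of RefSeq start sequences. A run of at least 8 was present at a start of 24 of the 66, or 36.4%, against 11.0% of all 27025 genes of the table. The letters CTTTC, read on the strand of the gene from 20 bases before to 30 after the start, were found in 34.8% of the 66 and 7.66% of all genes, and their reverse complement GAAAG in 10.6% and 7.30%. Counted on either strand, CTTTC was in 43.9% and 14.4%. In the whole window of 250 bases before to 50 after the start, CCGGAAG, the core bound by ETS family factors, was found on either strand in 39.4% of the 66 and 9.93% of all genes. Some of these matches overlap the C and T runs, and annotated starts were not measured here.

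The share of UMIs that came from ribosomal protein genes was lower in SLE.yaa in CD4 T cells, CD8 T cells, dendritic cells (DC), neutrophils (PMN) and cells annotated Mac, and overlapped between groups in the 3 B cell types. In CD4 T cells it was 35.9% in WT 1 (exact 95% binomial interval 35.8 to 35.9) and 36.3% in WT 2 (36.2 to 36.3), against 24.5% in SLE.yaa 1 (24.5 to 24.6) and 24.1% in SLE.yaa 2 (24.1 to 24.2). The intervals cover counting error alone. Both SLE.yaa mice lay below both WT mice, and the means of 36.1% ± 0.292 and 24.3% ± 0.282 (SD, n = 2) differed by -11.7 percentage points (exact permutation test, two-sided, p = 0.333, the smallest that 2 against 2 mice allow). In CD8 T cells the share was 39.5% and 39.6% in WT against 34.7% and 30.8% in SLE.yaa (the same exact p = 0.333). In DC it was 23.7% and 25.5% against 16.9% and 18.4%, in PMN 8.67% and 9.49% against 7.74% and 5.65%, and in Mac 18.8% and 19.6% against 17.5% and 17.8%, each without overlap. Across all cells it was 30.2% and 31.0% against 24.9% and 24.1%.

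B cells had 30.9% and 29.996% in WT against 30.2% and 32.5% in SLE.yaa, so the groups overlapped (exact permutation p = 0.667). B cells with interferon-stimulated genes (B-ISG) had 29.9% and 28.9% against 29.7% and 32.1%, and early B cells 19.4% and 19.0% against 18.5% and 19.96%. NK cells went the other way from T cells, with 21.6% and 20.5% in WT against 21.6% and 23.1% in SLE.yaa. WT 1 and SLE.yaa 1 were nearly equal there, and SLE.yaa 2 was the highest. In plasma cells (PC) the share was 15.9% and 15.6% in WT, from 12 and 11 cells, and 11.3% and 11.1% in SLE.yaa, from 340 and 287 cells. The order of the types in WT ran from CD8 and CD4 T cells through B cells to DC, NK, early B cells and Mac, then plasma cells and PMN. B and B-ISG were close neighbours, with WT 2 of B at 29.996% and WT 1 of B-ISG at 29.9%, and early B cells and Mac overlapped. Types were annotated from the same genes, so this order is a description.

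**Figure D1:**
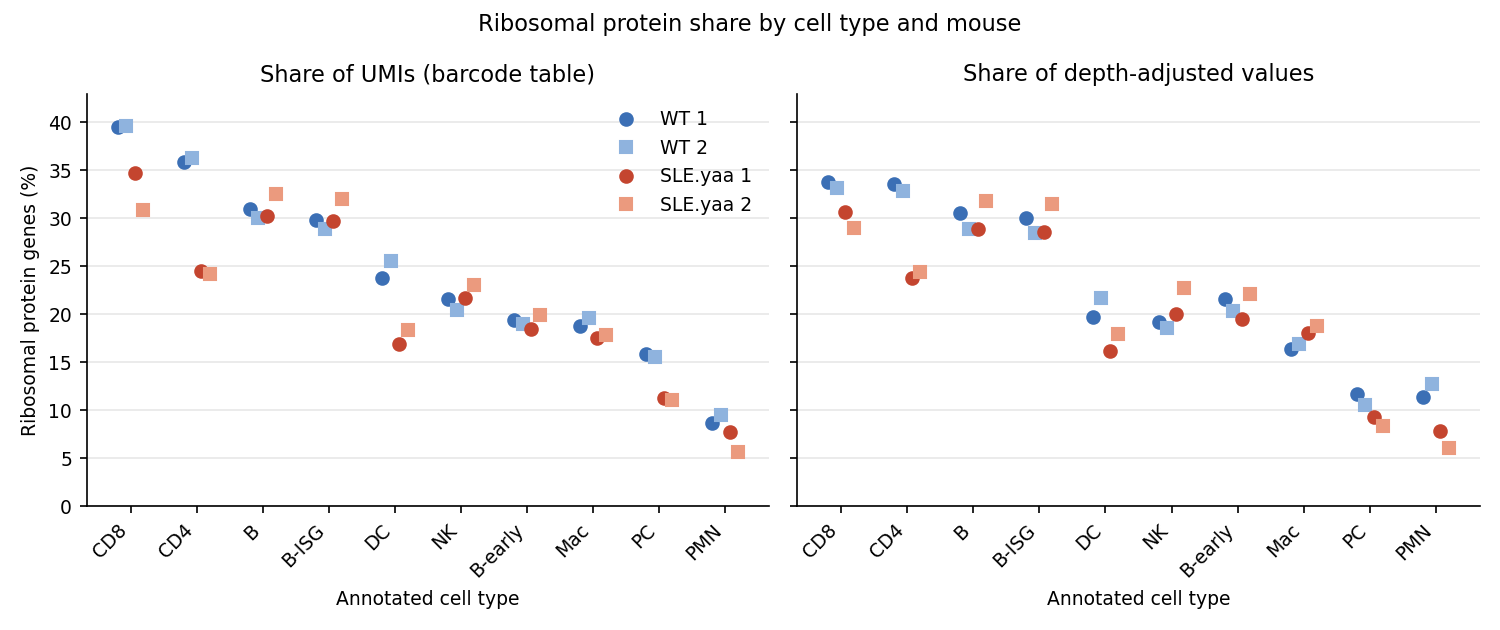
Percent of ribosomal protein genes (y axis) in 10 annotated cell types (x axis), with 1 point per mouse, as a share of UMIs (left) and as a share of the authors' depth-adjusted values (right). In CD4 T cells both SLE.yaa mice lie near 24% and both WT mice near 36% of UMIs, and in Mac the order of the groups differs between the panels.

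Counts of ribosomal and other UMIs per cell differed in pattern between types. In CD4 T cells the median cell held 1439 and 1573 ribosomal UMIs in WT against 926 and 795 in SLE.yaa, while its other UMIs numbered 2536 and 2742 against 3278 and 2851. In CD4 T cells, then, ribosomal UMIs were fewer and other UMIs more numerous in both SLE.yaa mice. In PMN the median cell held 76 and 75 ribosomal UMIs in WT against 91.5 and 93.5 in SLE.yaa, with 1554 and 1451 other UMIs against 2274 and 2623, so the lower share went with more UMIs of both kinds. B cells also held more of both, 935 and 959 ribosomal UMIs against 1408 and 1467 and 2276 and 2439 others against 3336 and 2999. Mac held fewer of both in SLE.yaa, 796 and 941 ribosomal UMIs in WT against 609 and 547. Their other UMIs numbered 3542 and 3484 against 2862 and 2626. In CD8 T cells the median cell held 2195 and 2296 ribosomal UMIs in WT against 2156 and 1182 in SLE.yaa. Its other UMIs overlapped between groups, with 3206.5 and 3412 against 4204 and 3084.5. Fewer ribosomal transcripts in a cell and deeper capture of other transcripts cannot be told apart from a share. The ratio of Rpl to Rps UMIs was higher in both SLE.yaa mice in most types, including B cell types whose ribosomal share overlapped. In CD4 T cells it was 1.15 and 1.15 in WT against 1.24 and 1.25 in SLE.yaa, in CD8 T cells 1.16 and 1.15 against 1.21 and 1.22, and in B cells 1.18 and 1.17 against 1.22 and 1.21. B-ISG, early B cells, DC and PC also had both SLE.yaa mice above both WT mice, and NK cells and PMN overlapped. In Mac it was 1.24 and 1.24 against 1.20 and 1.18, the opposite direction.

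Single genes were compared on the deposited depth-adjusted values, averaged over the cells of a mouse and type and scaled to 1000000 (the unit vpm). Values of different genes were not corrected for length and are not ranked against each other. In CD4 T cells 86 of the 91 genes passed the filter of at least 10 vpm in at least 2 mice. The 5 others were Rpl39l, Rpl3l, Rps18-ps4, Rps18-ps5 and Rps18-ps6. Of the 86, 64 were lower and 1 was higher in SLE.yaa at an adjusted p under 0.05 (limma, Benjamini-Hochberg over 8415 genes). Among all genes tested, 12.3% were lower and 15.9% were higher. All 77 canonical genes had a negative log2 change, with a median of −0.46 against −0.01 for all genes, and 62 passed the test. Without scaling between mice 6 of the 77 were positive and the median of all genes moved to 0.16, with averages of log values 5 were positive, and without SLE.yaa 1 1 was. The groups did not overlap, with SLE.yaa lower, in 74 of the 77 canonical genes and in 31.7% of all genes. The count of 64 lower genes came to 25 when either WT 1 or SLE.yaa 1 was left out, 34 for WT 2, 33 for SLE.yaa 2, and 36 with no filter on low values.

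**Figure D2:**
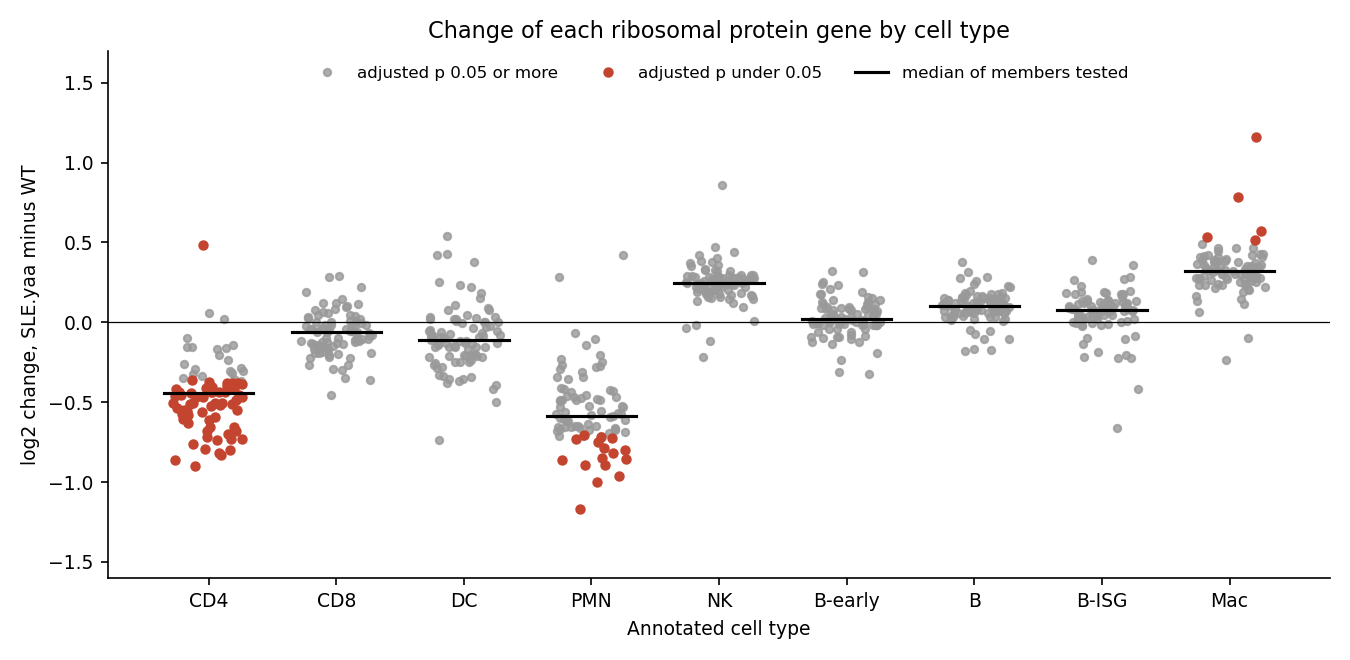
Log2 change of each ribosomal protein gene between SLE.yaa and WT (y axis) in 9 cell types (x axis), with red points at a limma adjusted p under 0.05 and a bar at the median of the genes tested. The CD4 and PMN genes lie mostly below 0, with 65 and 16 past the threshold, the Mac genes above 0 with 5, and the other 6 types have none.

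In the small subunit 26 of 31 genes fell in CD4 T cells, with a median of −0.51. Rps28, near the mRNA exit of the small subunit, had 4049 and 4711 vpm in WT against 2459 and 2345 in SLE.yaa. Its log2 change was −0.86 ± 0.13 (SE, limma adjusted p = 0.000128), with both SLE.yaa mice below both WT mice. Rps29, a zinc-binding protein of the head of the subunit, had 5348 and 6122 vpm against 3197 and 3225 (−0.83). Rps19, a gene mutated in Diamond-Blackfan anaemia, had 5538 and 5054 vpm against 2849 and 3143 (−0.82). Rps24, also a Diamond-Blackfan gene, had 12044 and 11653 vpm against 6685 and 6926 (−0.80 ± 0.13, limma adjusted p = 0.000324). The groups of these 4 genes did not overlap. Rps9, Rps12 and Rps14 were among the small subunit genes that did not pass. Rps12 had 2938 and 2569 vpm in WT against 2288 and 2883 in SLE.yaa, so its groups overlapped (−0.10).

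In the large subunit 36 of 46 genes fell, with a median of −0.44. Rpl12, at the base of the P stalk, had 3289 and 2877 vpm in WT against 1616 and 1676 in SLE.yaa, the lowest log2 change of the group at −0.90 ± 0.13 (limma adjusted p = 6.24e-05). The P stalk recruits translation factors to the ribosome, and the mRNAs of its other proteins were lower along with that of Rpl12. Rplp0 had 5655 and 5708 vpm against 3583 and 3263 (−0.73), Rplp1 7137 and 6446 against 4438 and 5122 (−0.51), and Rplp2 3575 and 3388 against 2468 and 2767 (−0.41). All 4 stalk genes fell and none overlapped between groups. The call on Rplp2 was lost when any 1 mouse was left out, and that on Rplp1 when any but WT 2 was. With no filter on low values both were lost (limma adjusted p = 0.0727 for Rplp1 and 0.0809 for Rplp2), and among cells with naive markers as well. Rpl5 and Rpl11 bind 5S ribosomal RNA and, outside the ribosome, restrain Mdm2. Rpl5 had 1922 and 1786 vpm in WT against 1079 and 1274 in SLE.yaa (−0.66, limma adjusted p = 0.00108). Rpl11 had 4030 and 3668 vpm against 3033 and 3266 (−0.29, adjusted p = 0.111), which did not pass.

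Rpl13 had 7745 and 7254 vpm in WT against 5288 and 5535 in SLE.yaa (−0.47, limma adjusted p = 0.0141), a call lost when any 1 mouse was left out. Rpl41, the shortest protein of the ribosome, had 5940 and 6166 vpm against 4834 and 5706 (−0.20), lower in both SLE.yaa mice without passing. Canonical genes with a C and T run of at least 8 at a RefSeq start (22 genes) had a median CD4 change of −0.50, from −0.80 to −0.14. The 35 with shorter runs had −0.43, from −0.90 to −0.10, and the ranges overlapped nearly throughout.

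The paralogs split in CD4 T cells. Rps27l, a paralog of Rps27 known as a target of p53, had 111 and 92.0 vpm in WT against 131 and 163 in SLE.yaa. It rose by 0.49 ± 0.14 (limma adjusted p = 0.0167), while Rps27 itself went from 6754 and 7020 vpm to 4390 and 4191 (−0.68). The call on Rps27l was lost without WT 2 (0.36, adjusted p = 0.242) and without SLE.yaa 2 (0.34, adjusted p = 0.125), and among cells with naive markers (0.27, adjusted p = 0.302). Rpl22l1 is a paralog of Rpl22, which acts in T cell development. It had 926 and 848 vpm in WT against 509 and 506 in SLE.yaa (−0.79, limma adjusted p = 0.000102). Rpl22 had 2390 and 2295 vpm against 1786 and 2042 (−0.29, adjusted p = 0.0990). Rps27rt, a copy of Rps27 on another chromosome, had 95.7 and 118 vpm against 71.3 and 62.9 (−0.59), and reads of Rps27 could be counted there. Its call was lost without WT 2 (−0.46, adjusted p = 0.118) and without scaling between mice (−0.39). Rpl36al had 1051 and 966 vpm in WT against 812 and 988 in SLE.yaa (−0.17), and Rpl7l1, a nucleolar protein related to Rpl7, had 46.1 and 54.9 against 53.6 and 51.9 (0.06). Neither passed.

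**Figure D3:**
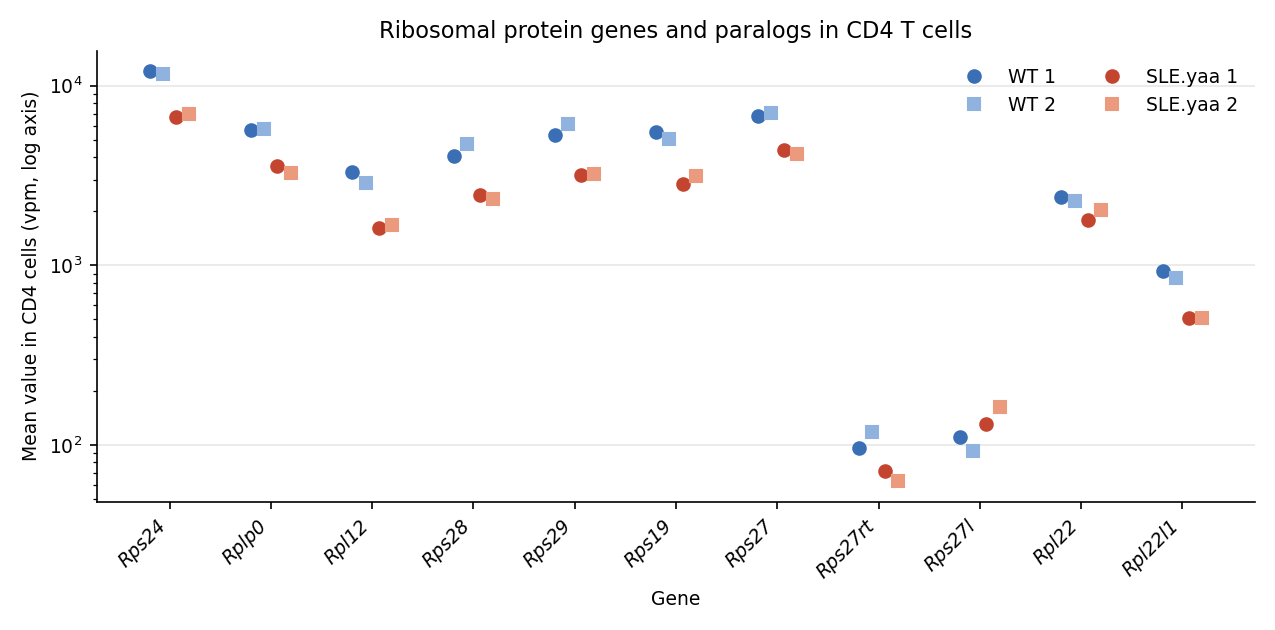
Mean value in CD4 T cells (y axis, vpm, log axis) of 11 ribosomal protein genes and paralogs (x axis), with 1 point per mouse. Rpl12, Rps28, Rps19 and Rpl22l1 lie lower in both SLE.yaa mice, and Rps27l lies higher in both.

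CD4 T cells of the groups differed in naive cells. At least 2 of the naive markers Lef1, Ccr7, Igfbp4 and Tcf7 were above 0 in 82.9% and 87.6% of CD4 T cells of WT and in 41.1% and 25.5% of those of SLE.yaa. This subset was chosen after the data were seen. Among these cells the ribosomal share of UMIs was 37.1% and 37.2% in WT against 29.4% and 29.6% in SLE.yaa, lower in both SLE.yaa mice. There 19 genes were called lower in place of 64, 0 were called higher, and the canonical median was −0.29, with 1 of the 77 genes positive. Among CD4 T cells with none of the 4 markers, 46 and 39 in WT against 144 and 205 in SLE.yaa, the share was 27.2% and 26.5% against 18.0% and 20.5%. So the share was lower in SLE.yaa among cells with and without these markers, and lower without the markers in each mouse.

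Other measures moved with the CD4 result. Among cells of 2000 to 5000 UMIs the share was 35.4% and 35.5% in WT against 22.0% and 22.7% in SLE.yaa. This gap was wider than that among all CD4 T cells. The deposited cells end at 25% Rpl UMIs (the highest was 24.996%, and the highest Rps share 23.7%). Between 24% and 25% lay 3.89% and 4.92% of the WT and 1.57% and 1.09% of the SLE.yaa CD4 T cells, and 11.6% and 12.0% against 8.25% and 4.14% of CD8 T cells. What an upper limit removed was not tested. Of 6 T cell markers in CD4 T cells, 5 passed the filter, 4 rose and 1 fell, and their summed value was 2947 and 2775 vpm in WT against 4856 and 5008 in SLE.yaa. All 5 B cell markers fell, with a sum of 401 and 401 vpm against 207 and 252. Of 6 plasma cell markers 4 passed the filter and 3 rose, with a sum of 63.3 and 60.9 vpm against 292 and 182. Monocyte markers summed to 54.8 and 61.6 vpm against 69.4 and 103, with Fn1 at 0, and macrophage markers to 1.69 and 0.316 against 29.6 and 22.2. The part of these cells in the ribosomal change was not tested.

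Other genes of ribosome production and translation were tested in CD4 T cells, where 12.3% of all genes were lower and 15.9% were higher. Rack1, a scaffold on the small subunit, had 1902 and 1705 vpm in WT against 1251 and 1324 in SLE.yaa (−0.48, limma adjusted p = 0.00769), and Fau, which encodes Rps30, had 8124 and 7469 against 6284 and 6942 (−0.24, not passing). Of 23 ribosome biogenesis genes 12 fell and 0 rose, with a median of −0.45. Nop56, a core protein of box C/D particles, had 87.3 and 76.9 vpm against 53.2 and 39.6 (−0.72). Mrto4, an assembly factor of the P stalk, had 54.5 and 58.3 vpm against 27.5 and 36.1 (−0.68).

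Of 10 RNA polymerase I genes tested, 3 fell and 0 rose, among them Polr1a, the largest subunit, at 38.1 and 39.1 vpm in WT against 20.2 and 21.1 in SLE.yaa (−0.66) and Taf1d at 91.1 and 94.6 against 59.1 and 49.7 (−0.68). Of 14 translation factors and other genes whose mRNAs carry TOP elements, 2 fell, a share near the 12.3% of all genes, and the median was −0.25. Eef1b2, an exchange factor of elongation factor 1, had 1583 and 1533 vpm against 1061 and 1069 (−0.54), and Pabpc1, the cytoplasmic poly(A)-binding protein, 1009 and 1033 against 747 and 829 (−0.37). In the growth control list of 9 genes 1 fell and 1 rose, also near the share of all genes. Myc, a driver of ribosome synthesis, had 56.2 and 70.0 vpm in WT against 39.6 and 26.8 in SLE.yaa (−0.77), and Eif4ebp1, a repressor of cap-dependent translation under mTOR, had 9.08 and 13.6 against 24.3 and 24.6 (0.70).

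Mitochondrial ribosomal protein genes did not share the shift of the cytosolic ones. Of 78 in CD4 T cells, 5 fell and 3 rose, where 12.3% of all genes were lower and 15.9% were higher, and their median was −0.01, equal to that of all genes. Mrps6 had 44.7 and 59.9 vpm in WT against 121 and 145 in SLE.yaa (1.21), and Mrpl52 had 308 and 245 against 402 and 429 (0.58).

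In CD8 T cells 0 of 86 genes passed (limma, 4 at an unadjusted p under 0.05), where 2.5% of all genes were higher and 0.652% were lower. The canonical median was −0.06 against −0.03 for all genes, with 56 of 77 negative, 36 of them without overlap (25.5% of all genes). Without scaling between mice it was 0.05 against 0.07 for all genes. Leaving out WT 1 gave 39 positive and 38 negative genes, and without scaling between mice 48 were positive. The direction in CD8 T cells thus varied with the mice and the scaling, and leaving out SLE.yaa 2 gave a median of −0.11. Rps24 had 11553 and 11317 vpm in WT against 9466 and 9504 in SLE.yaa (−0.27, adjusted p = 0.244), and Rpl22l1 903 and 912 against 677 and 644 (−0.45, adjusted p = 0.0894). Both were lower in both SLE.yaa mice without passing. Among CD8 T cells of 2000 to 5000 UMIs 9 genes passed, all lower, the canonical median was −0.22, and the share of UMIs was 36.4% and 36.7% against 26.8% and 26.4%. At least 2 naive markers were present in 83.0% and 89.1% of CD8 T cells of WT and in 66.7% and 37.9% of those of SLE.yaa. Among those cells the share was 40.3% and 40.2% against 37.5% and 36.1%. Biogenesis genes had a median of −0.29 in CD8 T cells, with 0 of 23 called (limma, 5 at an unadjusted p under 0.05).

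Cells annotated Mac expressed monocyte markers. All 6 monocyte markers passed the filter, 4 of them fell, and their sum was 18392 and 21028 vpm in WT against 10560 and 8758 in SLE.yaa, whereas macrophage markers summed to 16.6 and 24.5 against 20.4 and 36.8. Neutrophil markers summed to 147 and 237 vpm against 258 and 513, and 1 of 3 tested, S100a8, rose. Of the 2 dendritic cell markers tested 1 rose, Itgax, from 59.7 and 60.05 vpm to 160 and 191. The other, Cd209a, fell from 32.5 and 67.0 vpm to 15.8 and 19.2. All dendritic cell markers summed to 104 and 171 vpm in WT against 172 and 197 in SLE.yaa. Of 4 plasma cell markers tested 1 rose, Jchain, from 0 and 5.59 vpm to 246 and 37.1. The part of such cells in the results on Mac was not tested. In these cells 5 of 85 ribosomal protein genes rose and 0 fell, where 3.94% of all genes were higher and 1.79% were lower. All 77 canonical genes had a positive change, with a median of 0.33 against 0.03 for all genes, and the groups did not overlap in 76 of them, where 29.3% of all genes lay higher in both SLE.yaa mice. With scaling to the sum alone 4 of the 77 were negative and the median of all genes moved to −0.12, with averages of log values 1 was negative, among cells of 2000 to 5000 UMIs 2 were and without WT 1 1 was. Rps19 had 2352 and 2225 vpm in WT against 3547 and 4404 in SLE.yaa (0.79 ± 0.13, limma adjusted p = 0.0107). Rpl13a, known from interferon-gamma responses of monocytes, had 1459 and 1314 vpm against 1920 and 2211 (0.57). Rplp1 had 2066 and 1908 vpm against 2671 and 3096 (0.53), and Rpl5 had 733 and 742 against 1005 and 1111 (0.51). None of these 4 overlapped between groups.

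The other stalk and 5S genes had changes from 0.11 (Rplp0, 2456 and 2557 vpm against 2728 and 2695) to 0.47 (Rplp2, 1688 and 1634 against 2127 and 2479, limma adjusted p = 0.0563). None of those passed. Rpl3l, a paralog of Rpl3 known from muscle, had 23.9 and 22.3 vpm in WT against 52.4 and 78.0 in SLE.yaa (1.16 ± 0.18, limma adjusted p = 0.00740). Its values in PMN were 26.1 and 22.4 against 32.5 and 39.4, and in B, CD4 and CD8 cells it was at or below 2.18 in every mouse. Rpl3l (chr17:24727826-24736143) lies beside Msrb1 in the RefSeq annotation, and reads of a neighbour were not told apart here. The count of 5 in Mac was 25 without WT 1, 0 without SLE.yaa 2, 0 with no filter on low values, 14 with a minimum of 50 vpm, 18 without scaling between mice, 14 with averages of log values, 3 with scaling to the sum alone and 1 among cells of 2000 to 5000 UMIs.

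The direction in Mac depended on which deposited value was read. As a share of UMIs ribosomal protein genes were lower in SLE.yaa (18.8% and 19.6% against 17.5% and 17.8%), and as a share of depth-adjusted values they were higher (16.4% and 16.9% against 18.1% and 18.8%). In no other type with at least 20 cells in each mouse did both measures separate the groups in opposite directions. The median Mac cell of WT held 4308 and 4535 UMIs, and that of SLE.yaa 3515 and 3149. Within Mac cells of 1000 to 2000 UMIs the adjusted share was 25.2% and 28.04% in WT against 21.4% and 22.3% in SLE.yaa, and in cells of 5000 or more it was 12.8% and 13.4% against 15.1% and 15.6%. The adjusted share was thus lower in the deepest than in the shallowest cells of every mouse and the order of the groups turned over, while the share of UMIs in cells of 5000 or more was 19.0% and 19.9% against 17.9% and 18.4%. Among cells of 2000 to 5000 UMIs the canonical median was 0.12 against 0.05 for all genes. The share of UMIs there was 18.4% and 19.0% in WT against 17.2% and 17.3% in SLE.yaa.

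**Figure D4:**
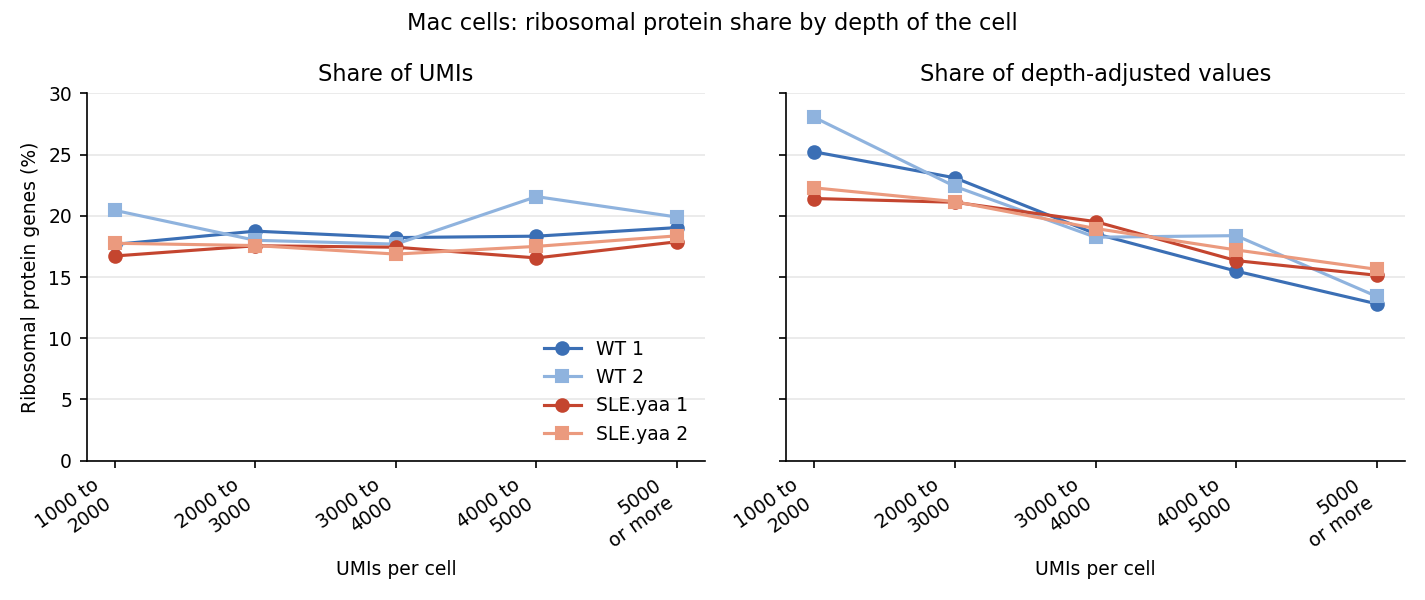
Percent of ribosomal protein genes in Mac cells (y axis) by UMIs per cell (x axis, 5 ranges), with 1 line per mouse, as a share of UMIs (left) and of depth-adjusted values (right). The UMI share stays between 16.6% and 21.6%, and the adjusted share is lower in the deepest than in the shallowest cells of every mouse, with the groups in opposite orders at the ends. WT 2 has 10 cells in the lowest range and 19 at 4000 to 5000 UMIs.

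In PMN 16 of 84 genes fell and 0 rose, where 0.552% of all genes were lower and 1.24% were higher. All 77 canonical genes were negative, with a median of −0.60 against 0.03 for all genes. The groups did not overlap, with SLE.yaa lower, in 76 of the 77 and in 20.3% of all genes. The genes named here for PMN were chosen after their values were seen. Rpl22l1 had 269 and 273 vpm in WT against 121 and 110 in SLE.yaa (−1.17 ± 0.20, limma adjusted p = 0.0149). Rps28 had 1185 and 1307 vpm against 677 and 563 (limma adjusted p = 0.0148), Rpl12 658 and 672 against 380 and 297 (−0.96), and Rpl36a 630 and 643 against 374 and 306 (−0.89). Both SLE.yaa mice were below both WT mice for each.

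The PMN calls rested on the settings and the mice. In place of 16, 0 were called without SLE.yaa 1 and 0 without SLE.yaa 2, 3 without WT 2, and 0 among cells of 2000 to 5000 UMIs, where 24 of the 77 canonical genes were positive. Without scaling between mice 2 were called, with averages of log values 6, with a pseudocount of 1 8, with scaling to the sum alone 34 and with a minimum of 50 vpm 50. Median depth was 1640 and 1547 UMIs in WT against 2369 and 2713 in SLE.yaa. PMN cells of 1000 to 2000 UMIs, 128 and 100 in WT against 76 and 125 in SLE.yaa, had a ribosomal share of 4.93% and 4.97% of UMIs against 4.56% and 3.65%. In those of 2000 to 3000 UMIs, 22 and 14 in WT against 59 and 100 in SLE.yaa, the groups overlapped. The shares there were 3.35% and 3.49% against 3.72% and 3.39%. As a share of depth-adjusted values, all PMN had 11.4% and 12.8% in WT against 7.82% and 6.02% in SLE.yaa. That share was 13.9% and 14.2% against 9.65% and 8.66% at 1000 to 2000 UMIs. At 2000 to 3000 it was 7.50% and 7.59% against 6.42% and 5.96%. At 5000 UMIs or more the groups overlapped, with 7.08% and 10.1% against 8.23% and 5.09%. The part of the depth adjustment in the PMN result was not tested. Neutrophil markers in PMN summed to 176498 and 143063 vpm in WT against 196178 and 257586 in SLE.yaa, with 0 of 6 called, and monocyte markers to 4778 and 3202 against 5943 and 8342, with 1 of 3 called higher. Of 5 B cell markers in PMN 2 fell, with a sum of 1547 and 1728 vpm against 996 and 476, and the part of these markers in the ribosomal change was not tested.

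In DC 0 of 86 genes passed (limma, 6 at an unadjusted p under 0.05), where 8.39% of all genes were higher and 3.77% were lower. The canonical median was −0.12 against 0.06 for all genes. Without WT 2 the canonical median was −0.0079 and without SLE.yaa 1 −0.010, each with 37 of 77 genes positive. Without WT 1 it was −0.23 and without SLE.yaa 2 −0.20. The median of all genes lay between 0.053 and 0.065 when any 1 mouse was left out. The content of this type differed between groups: macrophage markers summed to 650 and 1459 vpm in WT against 13626 and 10283 in SLE.yaa, and all 6 rose, and erythroid markers to 0 and 10.8 against 1378 and 2372. In DC with C1qa, C1qb and C1qc at 0, a subset chosen after the data were seen, the share of UMIs was 24.2% and 26.1% in WT against 22.1% and 22.3% in SLE.yaa, against 23.7% and 25.5% and 16.9% and 18.4% among all DC. The canonical median in that subset was 0.04 against −0.005 for all genes. In it 52 of 77 canonical genes were positive, against 20 of 77 among all DC.

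In B cells 0 of 86 genes passed (limma, 2 at an unadjusted p under 0.05), where 2.99% of all genes were higher and 1.12% were lower. Of the 77 canonical genes 6 lay higher in both SLE.yaa mice and 4 lower, where 20.6% and 22.9% of all genes did. Their median change was 0.10 against −0.01 for all genes, with 72 of 77 positive. Without SLE.yaa 2, 27 were positive and 50 negative, and without WT 2, 41 were positive. Among B cells of 2000 to 5000 UMIs 76 were positive. The canonical median lay 0.24 above that of all genes there, and 0.11 above it among all B cells. Rps24 had 10244 and 9312 vpm in WT against 9052 and 11009 in SLE.yaa (0.03), Rpl12 2264 and 1874 against 1978 and 2329 (0.06), and Rps28 3431 and 3676 against 3193 and 3402 (−0.11). The 2 groups overlapped in Rps24 and Rpl12 and stood apart in Rps28. Without scaling between mice 67 genes were called higher in B cells, where the median of all genes moved to 0.21, and with averages of log values 50. B-ISG had 0 of 85 called (limma, 0 at an unadjusted p under 0.05), with 0.604% of all genes higher and 0.263% lower. Of its canonical genes 11 lay higher in both SLE.yaa mice, where 19.1% of all genes did. Their median was 0.09 against 0.01 for all genes, with 67 of 77 positive, and without SLE.yaa 2, 23 were positive. Early B cells had 0 of 84 (limma, 0 at an unadjusted p under 0.05), with 0.36% higher and 0.0771% lower. NK cells had 0 of 84 (limma, 1 at an unadjusted p under 0.05), with 0.0967% of all genes higher and 0% lower, and 76 of the 77 canonical genes were positive with a median of 0.25 against −0.05 for all genes. In 36 of them both SLE.yaa mice were higher, where 15.5% of all genes were. Without SLE.yaa 2 the NK median was 0.057 with 58 positive genes, and without SLE.yaa 1 it was 0.44 with 77. T cell markers in NK cells summed to 56.8 and 80.1 vpm in WT against 406 and 400.2 in SLE.yaa, with 2 of 4 tested called higher, and NK markers to 15789 and 13813 against 8130 and 9486, with 0 of 5 called. Their part in the NK result was not tested.

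Whether the change differed between types was tested within mice. The change in B cells was higher than that in CD4 T cells for 78 of 86 genes and lower for 1, Rps27l, where 13.3% of all genes were higher and 13.4% were lower (limma, adjusted over 7500 genes). For Rpl12 the changes were 0.06 in B and −0.90 in CD4 T cells, a difference of 0.96 ± 0.11 (limma adjusted p = 0.000221). Rps27l had 0.06 and 0.49, a difference of −0.43. The count of 78 was 52 without WT 2 and 44 without SLE.yaa 2, and in both cases Rps27l was no longer called. Between CD4 and CD8 T cells 5 genes, Rpl12, Rpl13a, Rplp0, Rps16 and Rps19, had a lower change in CD4 and 0 a higher one, where 2.9% of all genes were lower and 3.86% were higher (limma, 59 of the 86 at an unadjusted p under 0.05). Rps19 had −0.82 in CD4 and −0.20 in CD8 T cells. Leaving out WT 1 or WT 2 left 0 of the 5, leaving out SLE.yaa 1 left 1 call and leaving out SLE.yaa 2 left 2, and the count was 69 with a pseudocount of 50. With a pseudocount of 1, with scaling to the sum alone and among cells of 2000 to 5000 UMIs it was 0.

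Between B cells and Mac, 1 gene had a lower change in B cells and 1 a higher one of 84 genes, where 2.77% of all genes were lower and 2.79% were higher (limma, 12 at an unadjusted p under 0.05). Rps19 changed by 0.07 in B cells and 0.79 in Mac, a difference of −0.72 ± 0.16 (limma adjusted p = 0.0304). Rpl10-ps3, a pseudogene name whose reads could be those of Rpl10, had 0.38 and −0.23. Without SLE.yaa 1, and without SLE.yaa 2, neither was called, and without WT 2 Rpl10-ps3 was not. With a pseudocount of 50, 16 genes were lower in B cells and 0 higher.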

How the data were processed

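Spleen cells of 4 mice were aligned and counted with Cell Ranger 5.0.0 on GRCm38 (mm10) and handled in Seurat 4.0.0, per the submitters' processing notes. The deposited expression table held the natural log of 1 plus a whole number. These whole numbers had been adjusted for depth by the authors, by a method that no label or file header states: their sum per cell ranged 2.40-fold, and the UMIs 26.8-fold. The deposited barcode table gave each cell's UMI count, the percent of Rps and Rpl UMIs, the mouse and the cell type. Deposited cell cycle scores were not used, and of the B cell receptor tables the age alone was. T cell receptor tables were not used.

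The logs were undone, averaged per mouse and type, scaled to 1000000 and adjusted with TMM factors (edgeR 4.0.16). Genes that reached 10 in 2 or more mice went into limma 3.58.1 (trend) on log2(value + 10), with Benjamini-Hochberg adjustment over all genes and a threshold of 0.05, in types with at least 20 cells in each mouse. A fold on this scale understates the change of low genes. Adjusted values are not counts, so no count model was fitted, although counts had been allowed for in the design. With 2 mice a group, limma moderated the variance of each gene toward that of genes at a similar level. Its p-values therefore rest in part on the spread of other genes, and they cover these 4 mice alone. Percent columns times UMIs gave whole UMIs, which were summed. The 15 rows without a gene name (0.0440% of values) were left out. On simulated data with known changes, a log2 change of 1 was recovered for 99% of changed genes in CD4 (8264 genes) and 92% in Mac (7907 genes). A change of 0.5 was recovered for 28% and 15%. The simulation drew genes independently with an assumed dispersion and changed 200 genes in each type. These shares therefore need not hold for the real data, where the number of changed genes and their spread differ.

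Genes were named by rule in B, CD4, CD8 and Mac: the 5 highest and 5 lowest changes past the threshold, the 3 highest mean levels, paralogs, stalk and 5S genes, Fau, Rack1 and 2 of each other list. Some genes are not reported here. The genes and lists were chosen with earlier results of these data known. Alternatives changed the scaling, pseudocount, filter, averaging, cells and mice. Start sequences came from RefSeq (GRCm38.p6).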

Additional observations from a re-analysis of the deposited data

Results flagged for a closer look

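The change between SLE.yaa and WT differed between cell types by a test of the difference itself (limma). It was higher in B cells than in CD4 T cells for 78 ribosomal protein genes and lower for 1, Rps27l, of 86 (13.3% and 13.4% of all genes), with 44 to 77 higher when 1 mouse was left out. It was lower in CD4 than in CD8 T cells for 5 of 86 (2.9% of all genes), and for 0 to 2 when 1 mouse was left out. Between B cells and Mac it was higher for 1, Rpl10-ps3, and lower for 1, Rps19, of 84. These counts lie below the 2.79% and 2.77% of all genes and are no result about ribosomal protein genes.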

How the results depend on the processing

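Genes called higher in B cells numbered 67 without scaling between mice and 50 with averages of log values, in place of 0, and in B-ISG 41 and 22. In CD4 the 64 lower genes were 36 with no filter and 19 in cells with naive markers, where 0 were higher. In CD8, 1 was lower with scaling to the sum alone and 9 at 2000 to 5000 UMIs. In DC, 8 were lower with scaling to the sum alone, 1 without scaling and 6 with averages of log values. In Mac the 5 higher genes were 3 with scaling to the sum alone, 18 without scaling, 0 with no filter, 14 with a minimum of 50, 14 with averages of log values and 1 at 2000 to 5000 UMIs. In PMN the 16 lower genes were 34, 2, 8, 50, 6 and 0 with scaling to the sum alone, no scaling, a pseudocount of 1, a minimum of 50, averages of log values and 2000 to 5000 UMIs. Of the differences between B cells and Mac, 0 were lower with scaling to the sum alone, 0 in either direction with a pseudocount of 1 or at 2000 to 5000 UMIs, and 16 lower and 0 higher with a pseudocount of 50. The 5 genes lower in CD4 than in CD8 were 0 with scaling to the sum alone, 0 with a pseudocount of 1, 69 with a pseudocount of 50 and 0 at 2000 to 5000 UMIs. Leaving out 1 mouse at a time gave 0 to 3 higher in B, 25 to 34 lower and 0 to 1 higher in CD4, 0 to 5 lower and 0 to 2 higher in CD8, 0 to 1 lower and 0 to 1 higher in DC, 0 to 25 higher in Mac and 0 to 12 lower in PMN. It gave 44 to 77 higher and 0 to 1 lower for B against CD4, 0 to 1 in both directions for B against Mac, and 0 to 2 lower for CD4 against CD8. The ribosomal percent of UMIs, SLE.yaa minus WT, ran from -0.263 (without SLE.yaa 2) to 2.02 points in B cells. In early B cells it ran from -0.681 (without SLE.yaa 2) to 0.780, with -0.139 without WT 2 and -0.0979 as a median over cells. Of the values of single named genes under alternatives, 249 kept their call, 63 lost it and 0 changed direction. In CD4, 8 of 13 named genes kept theirs under every alternative run: Rpl12, Rpl22l1, Rpl5, Rplp0, Rps19, Rps24, Rps28 and Rps29. Scaling moved the split of all genes called in CD4 from 1338 higher and 1032 lower to 2056 and 485 without scaling, and in Mac from 311 and 141 to 167 and 258 with the sum alone. The cause of these shifts was not tested. The subsets with naive markers and without C1q were chosen after seeing the data. No paired analysis was possible because the labels number no replicates and the mouse numbers follow record order, which pairs nothing. With 2 mice a group, a simulated log2 change of 0.5 was called for 28% of the changed genes in CD4 and 15% in Mac. That simulation assumed a dispersion, drew genes independently and changed 200 of them, so these shares need not hold for the real data.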
